A study of Mus musculus with 9 samples.

Results

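The 39 genes described here are the members of the mouse Hox clusters, chosen from the 21899 genes of the count table as every gene named Hox with a cluster letter (a, b, c or d) and a number. They comprise 11 HoxA, 10 HoxB, 9 HoxC and 9 HoxD genes. RNA was sequenced from dissected paraventricular thalamus (PVT), a nucleus beside the third ventricle, of wild-type mice. Animals were given an intraperitoneal injection of phosphate-buffered saline (PBS) or of lipopolysaccharide (LPS), a cell wall component of Gram-negative bacteria that activates innate immune cells. Tissue was taken 1 day after PBS (3 libraries), 1 day after LPS (3) and 7 days after LPS (3), named below PBS, LPS 1 day and LPS 7 days. No library came from PBS tissue of a later day, which means that day and treatment cannot be told apart in the comparison of LPS 7 days with PBS. The labels give no strain, age, sex or LPS dose, and they do not say that the libraries of a group came from different mice, so p-values measure the spread between these libraries, which may be technical.

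Hox genes encode homeodomain transcription factors that give cells of the embryo a position along the head-to-tail axis. Their order along a cluster follows the order of their expression along the axis. Genes of low paralog number, at the 3′ end of a cluster, are used from the hindbrain backwards, and genes of high number are used in the spinal cord and the tail end of the trunk. Many hindbrain and spinal neurons keep this code in the adult, whereas the forebrain, with the thalamus, and the midbrain lie in front of the Hox domain. Cerebellar neurons derive from the first hindbrain segment, which is free of Hox expression. The number of the paralogs that are transcribed therefore serves as a coordinate for nervous tissue of the remaining hindbrain and the spinal cord.

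Each library held 13211422 to 17210526 gene counts, and 0 counts in a library allow a level of up to 0.174 to 0.227 CPM (counts scaled to library size), taking 3 counts as the limit. Intervals and limits of this kind cover counting error only. The Y-linked genes Ddx3y, Eif2s3y, Uty and Kdm5d summed to 1, 0 and 0 counts in PBS, 81.4 to 85.2 CPM at LPS 1 day and 90.5 to 102 CPM at LPS 7 days, so the PBS group also stands apart in these genes. The labels give no sex, and in both comparisons with PBS a difference in sex cannot be told apart from treatment. Thalamic markers were present in all 9 libraries (8 of 8 tested, summed level 537 to 646 CPM). Among them Slc17a6, a vesicular glutamate transporter used by thalamic relay neurons, was at 198 ± 3.57 CPM (SD, n = 3) in PBS. For LPS 7 days against PBS, 1 of the 8 rose (Calb2, from 97.1 to 159.7 CPM) and 5 fell. The summed level therefore does not measure how much thalamic tissue a library held. In bulk tissue, fewer cells of a type and less RNA per cell cannot be told apart.

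The clusters lie on 4 chromosomes of GRCm39. HoxA spans chr6:52132570-52237788 on the minus strand, HoxB chr11:96085142-96259082, HoxC chr15:102829538-102945278 and HoxD chr2:74498654-74595486, the last 3 on the plus strand. Promoter sequences were matched in RefSeq for 22 of the 39 members (24 promoters), as the 250 bases before the annotated start in GRCm38.p6. The 3 members with the highest CPM are printed 5′ to 3′, as the genes that carry the signal described further on, with Hoxb8, which had no count in any library, for comparison. Capitals mark TAAT, the core letters bound by homeodomains, and AGGTCA, the half-site letters of retinoid receptors, on either strand (ATTA and TGACCT on the printed strand). Hoxa5 is the window chr6:52204588-52204837 on the minus strand, Hoxb4 chr11:96318017-96318266, Hoxc4 chr15:103034145-103034394 and Hoxb8 chr11:96281655-96281904, these 3 on the plus strand.
Hoxa5: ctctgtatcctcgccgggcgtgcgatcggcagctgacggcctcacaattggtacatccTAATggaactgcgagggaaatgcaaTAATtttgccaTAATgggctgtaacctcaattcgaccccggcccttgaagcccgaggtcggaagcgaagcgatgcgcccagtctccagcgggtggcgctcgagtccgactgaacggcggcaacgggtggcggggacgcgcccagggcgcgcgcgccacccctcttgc
Hoxb4: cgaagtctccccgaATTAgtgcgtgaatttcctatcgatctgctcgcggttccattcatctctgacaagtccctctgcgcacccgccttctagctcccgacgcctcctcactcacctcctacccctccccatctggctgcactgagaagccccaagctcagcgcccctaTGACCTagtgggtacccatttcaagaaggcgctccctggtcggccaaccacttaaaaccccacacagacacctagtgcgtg
Hoxc4: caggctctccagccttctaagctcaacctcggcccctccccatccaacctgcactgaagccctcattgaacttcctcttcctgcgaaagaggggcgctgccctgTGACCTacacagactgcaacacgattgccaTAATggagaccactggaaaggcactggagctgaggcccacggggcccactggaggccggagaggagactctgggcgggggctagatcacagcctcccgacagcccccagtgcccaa
Hoxb8: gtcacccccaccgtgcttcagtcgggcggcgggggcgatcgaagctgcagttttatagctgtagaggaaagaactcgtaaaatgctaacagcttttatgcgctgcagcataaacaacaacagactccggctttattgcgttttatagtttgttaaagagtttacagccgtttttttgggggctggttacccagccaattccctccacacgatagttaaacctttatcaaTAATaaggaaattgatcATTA
TAAT was found in 18 of the 24 Hox promoters (75%) and in 54.9% of all 32851 promoters of the same length. AGGTCA was found in 6 of 24 (25%, in the promoters of Hoxb4, Hoxc4, Hoxd3, Hoxd4, Hoxd8 and Hoxd10) against 14.02% of all. Among these 6 genes, Hoxd8 and Hoxd10 had no count in any library. The Hox promoters held a median of 12.5 CG dinucleotides (2 to 35), against 6 over all promoters. The other 5 motifs searched were TGATTNAT and TGATNNAT (PBX with HOX), TAATTA (paired homeodomain sites), TTTATNG (posterior HOX and CDX) and TGACAG (MEIS). They were found in 2, 4, 2, 2 and 2 of the 24 promoters, against 2.82%, 7.68%, 4.84%, 9.81% and 15.9% of all promoters. TAAT lies within TAATTA, and TGATTNAT is a special case of TGATNNAT. A match describes letters only.

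Hox transcripts were near the counting limit in PBS and at 1 day after LPS, and were present in all 3 libraries at 7 days. Over all 39 members the libraries held 1, 2 and 3 Hox counts in PBS, 2, 3 and 11 at LPS 1 day, and 185, 170 and 200 at LPS 7 days. Every LPS 7 day library lay far above every other library. The summed level was 0.130 ± 0.0729 CPM in PBS, 0.337 ± 0.288 CPM at LPS 1 day and 11.2 ± 0.679 CPM at LPS 7 days (SD, n = 3 each). The ratio of summed counts was 88.9 for LPS 7 days over PBS (95% counting interval 40.6 to 243) and 31.9 for LPS 7 days over LPS 1 day (19.5 to 56.2). Between LPS and PBS at 1 day the ratio was 2.79 (1.04 to 8.69), but replicate 3 held 11 of the 16 LPS 1 day counts, and leaving it out gave an LPS 1 day level of 0.170 CPM. Of the 39 members, 17 had no count anywhere, and 4, 6 and 18 had any count in PBS, LPS 1 day and LPS 7 days. A count in all 3 libraries of the group was seen for 0 members in PBS, for 1 at LPS 1 day (Hoxb4, at 1, 1 and 2 counts) and for 11 at LPS 7 days.

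**Figure D1:**
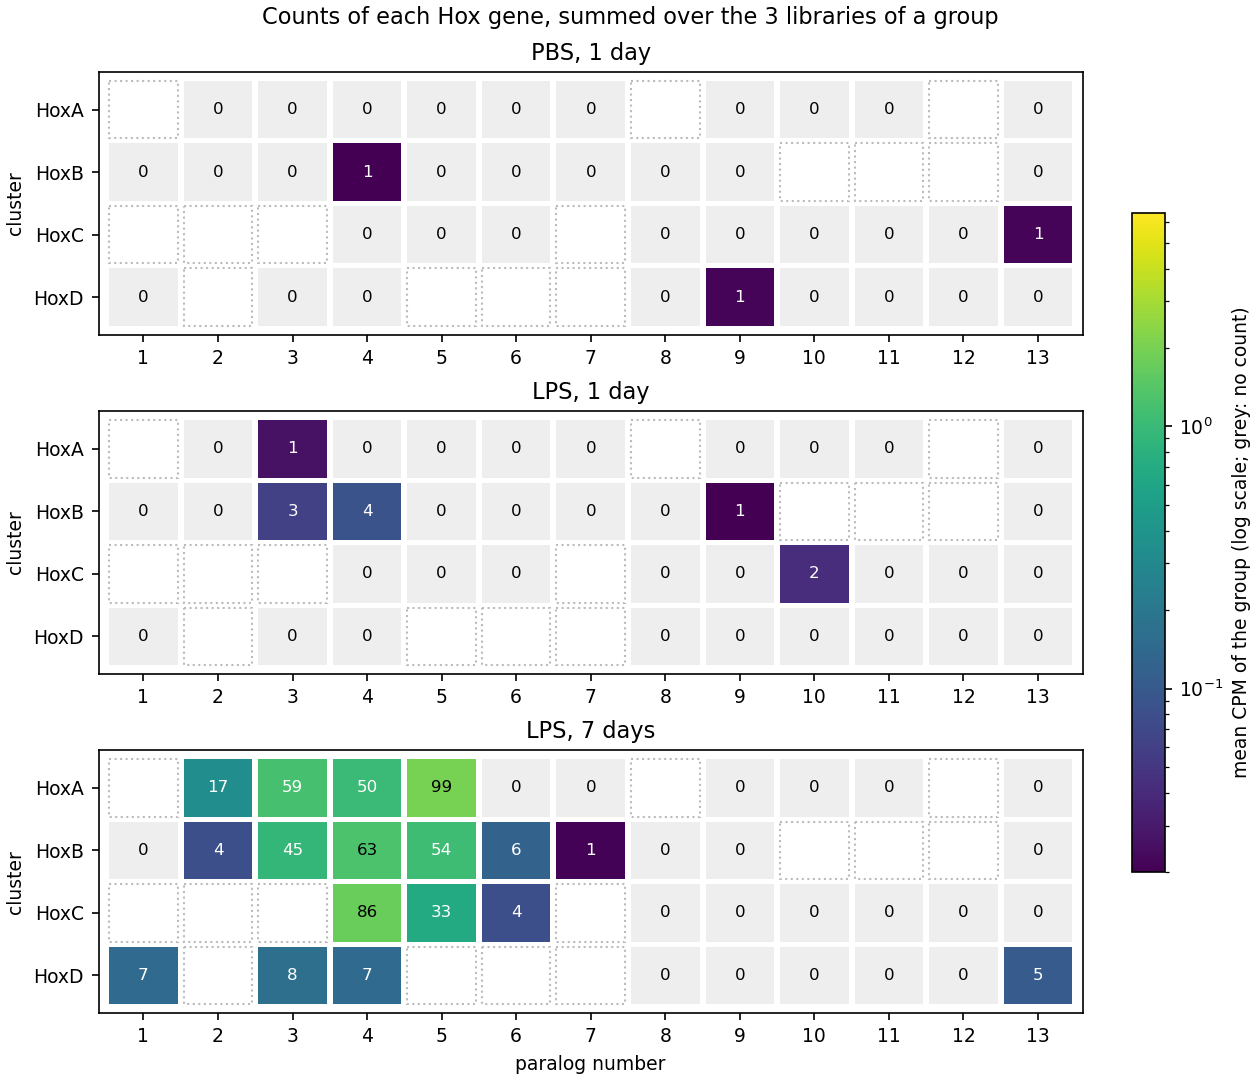
Counts of each Hox gene summed over the 3 libraries of a group, by cluster (rows) and paralog number (columns), coloured by mean CPM on a log scale; grey cells had no count and dotted cells have no gene or are not shown. The LPS 7 day counts lie almost all in paralogs 1 to 5 (539 of the 555 over all 39 genes), whereas the PBS and LPS 1 day groups have 6 and 16 counts over all 39 genes.

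Along the paralog numbers, the signal at LPS 7 days began at the front of the clusters and fell to single counts after number 6. Paralogs 1 to 5 took 539 of 555 counts (97.1%, exact binomial interval 95.4 to 98.3%), with 97.8%, 94.7% and 98.5% in the 3 libraries. Paralog 2 had 21 counts, paralog 3 had 112, paralog 4 had 206, paralog 5 had 186, paralog 6 had 10 and paralog 7 had 1. Paralogs 8 to 12 had 0 counts, and paralog 13 had 5, all from Hoxd13. Paralogs 4 and 5 were the most abundant groups, at 4.17 ± 0.687 and 3.75 ± 1.06 CPM, followed by paralog 3 at 2.26 ± 0.226 CPM. The libraries of paralogs 4 and 5 overlapped each other. Per gene length the order was the same, with summed FPKM (counts scaled to gene length and library total) of 1.90 ± 0.278 for paralog 4, 1.71 ± 0.356 for paralog 5 and 0.461 ± 0.0476 for paralog 3.

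For paralogs 7 to 13, the genes of the thoracic to tail-end cord, the groups were not told apart by counting: 2 counts in PBS, 3 at LPS 1 day and 6 at LPS 7 days (ratio of LPS 7 days to PBS 2.88, 95% counting interval 0.515 to 29.2). The 6 counts were 1 of Hoxb7 and 5 of Hoxd13, a gene known from digit and genital development. Hoxd13 had 1, 4 and 0 counts in the 3 LPS 7 day libraries. Single counts of such genes also appeared elsewhere: Hoxc13 and Hoxd9 had 1 count each in PBS replicate 2, Hoxc10 had 2 in LPS 1 day replicate 2 and Hoxb9 had 1 in LPS 1 day replicate 3.

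Among the clusters, HoxA held the largest share of the LPS 7 day counts and HoxD the smallest. HoxA had 73, 77 and 82 counts, HoxB 44, 56 and 73, HoxC 52, 27 and 44, and HoxD 16, 10 and 1. HoxA took 41.8% of the Hox counts, HoxB 31.2%, HoxC 22.2% and HoxD 4.86% (exact binomial interval 3.23 to 7.00%). HoxA was also the steadiest cluster over libraries, at 4.69 ± 0.196 CPM, with HoxB at 3.49 ± 0.811, HoxC at 2.48 ± 0.767 and HoxD at 0.552 ± 0.464. The HoxD share was 8.65% (5.02 to 13.7%), 5.88% (2.86 to 10.6%) and 0.5% (0.0127 to 2.75%) in replicates 1, 2 and 3, so the interval of replicate 3 lies below both others. Leaving out 1 library moved the HoxD level to between 0.338 and 0.798 CPM. Per gene length the clusters kept this order, with summed FPKM of 2.20 ± 0.0468 for HoxA, 1.22 ± 0.260 for HoxB, 0.947 ± 0.295 for HoxC and 0.211 ± 0.181 for HoxD.

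**Figure D2:**
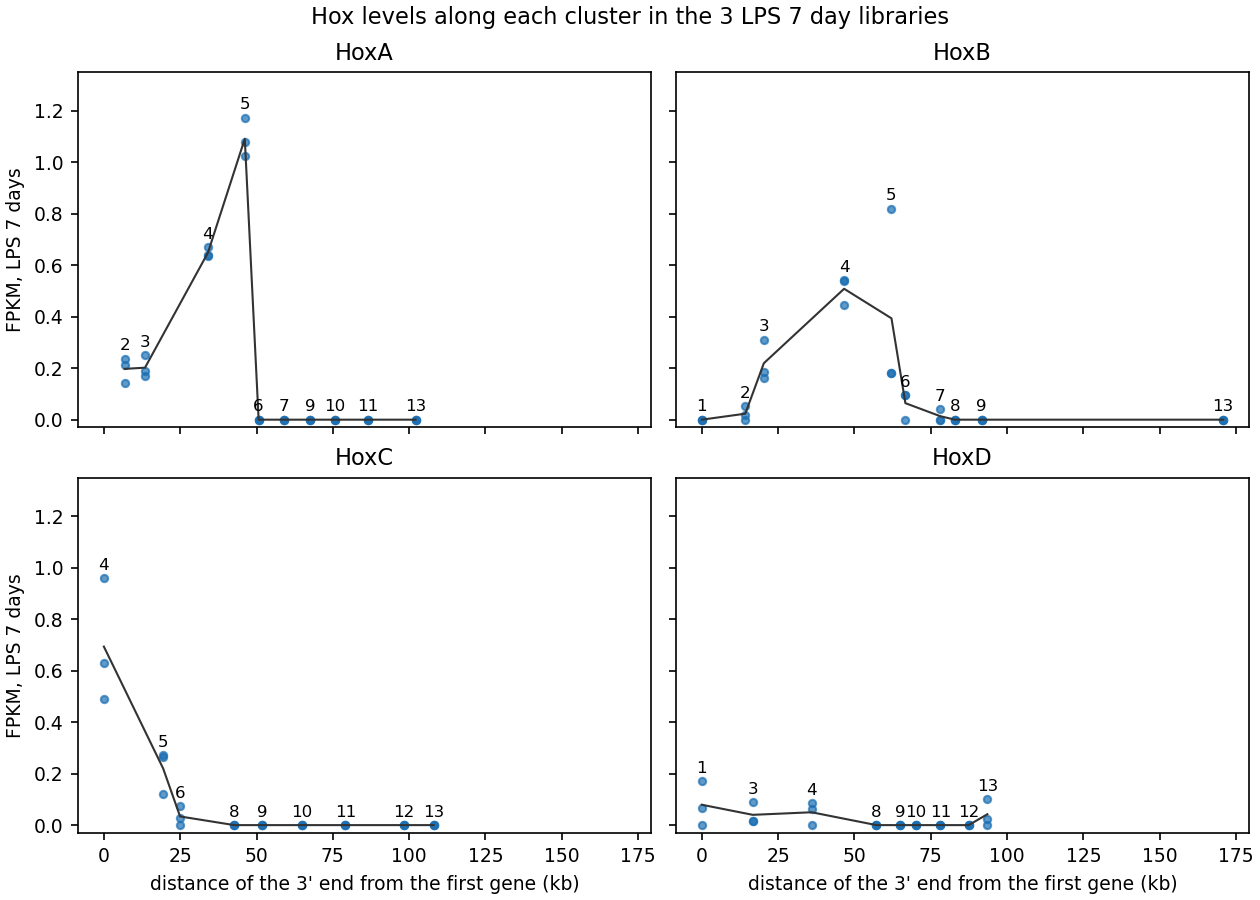
FPKM of each Hox gene in the 3 LPS 7 day libraries (points) and their mean (line) against the distance in kb of the gene's 3′ end from that of the first gene of its cluster; numbers are paralog numbers, and not every gene is shown. Levels are highest at paralogs 4 and 5 of HoxA, HoxB and HoxC, with Hoxa5 highest at 1.09 ± 0.0757 FPKM, and lie near 0 from paralog 7 on.

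Among the front members, which pattern the hindbrain itself, levels were low. Hoxa2 gives the second pharyngeal arch and front hindbrain segments their identity. It had no count in the 6 libraries of day 1 and 6, 4 and 7 counts at LPS 7 days (0.343 ± 0.0864 CPM). This level is at least 5.44-fold higher than PBS when 3 counts over the group serve as the floor. Folds of this kind take the LPS 7 day level as observed, without its counting error, so they are not interval limits. Hoxb2, the HoxB paralog of Hoxa2, had 0, 1 and 3 counts at LPS 7 days. Hoxb1, a gene of the facial motor segment, had none in any library.

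Paralog 3 genes mark caudal hindbrain segments. Hoxa3, which is also needed for the thymus and parathyroid, had 0 counts in PBS, 1 count at LPS 1 day, and 16, 18 and 25 counts at LPS 7 days (1.19 ± 0.258 CPM), at least 18.9-fold higher than PBS. Hoxb3 had 0 counts in PBS, 0, 0 and 3 at LPS 1 day, and 11, 21 and 13 at LPS 7 days (0.913 ± 0.335 CPM), at least 14.4-fold higher than PBS and 13.8-fold higher than LPS 1 day (95% counting interval 4.43 to 69.4). The LPS 7 day libraries of both genes lay above all others. Hoxd3 had 6, 1 and 1 counts at LPS 7 days and none before.

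The paralog 4 genes, whose front limit lies in the lowest hindbrain, and the paralog 5 genes, of the lowest hindbrain and neck cord, carried most of the signal. Hoxa5, which takes part in the making of phrenic motor neurons and of the lung, was the most abundant member: 0 counts in all 6 libraries of day 1 and 32, 35 and 32 counts at LPS 7 days (2.004 ± 0.138 CPM), at least 31.7-fold higher than PBS and 30.4-fold higher than LPS 1 day. Its 3 LPS 7 day libraries were almost equal. Hoxc4 had 39, 20 and 27 counts at LPS 7 days (1.74 ± 0.591 CPM) and none at day 1, at least 27.5-fold higher than PBS. Hoxa4 had 16, 17 and 17 counts (1.01 ± 0.0346 CPM) and none at day 1, at least 16.01-fold higher than PBS. Hoxb4, known also for its role in blood stem cells, had 1, 0 and 0 counts in PBS, 1, 1 and 2 at LPS 1 day and 22, 22 and 19 at LPS 7 days (1.28 ± 0.132 CPM). Its ratio was 60.5 to PBS (95% counting interval 10.5 to 2430) and 14.5 to LPS 1 day (5.39 to 54.8). Hoxd4 had 4, 3 and 0 counts at LPS 7 days.

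Hoxb5 differed between the LPS 7 day libraries. It had no count at day 1 and 8, 8 and 38 counts at LPS 7 days, that is 0.490 CPM (95% Poisson interval 0.212 to 0.966), 0.493 CPM (0.213 to 0.972) and 2.25 CPM (1.59 to 3.08). The mean of 1.08 ± 1.01 CPM falls to 0.492 CPM without replicate 3. Its neighbour Hoxb4 showed no such step in that library, with 19 counts. Hoxc5, which acts with Hoxa5 in phrenic motor neurons, had 13, 6 and 14 counts (0.665 ± 0.256 CPM) and none at day 1, at least 10.6-fold higher than PBS. Hoxb6 had 3, 3 and 0 counts and Hoxc6, a gene of limb-level cord, 0, 1 and 3. Hoxa6 had none.

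**Figure D3:**
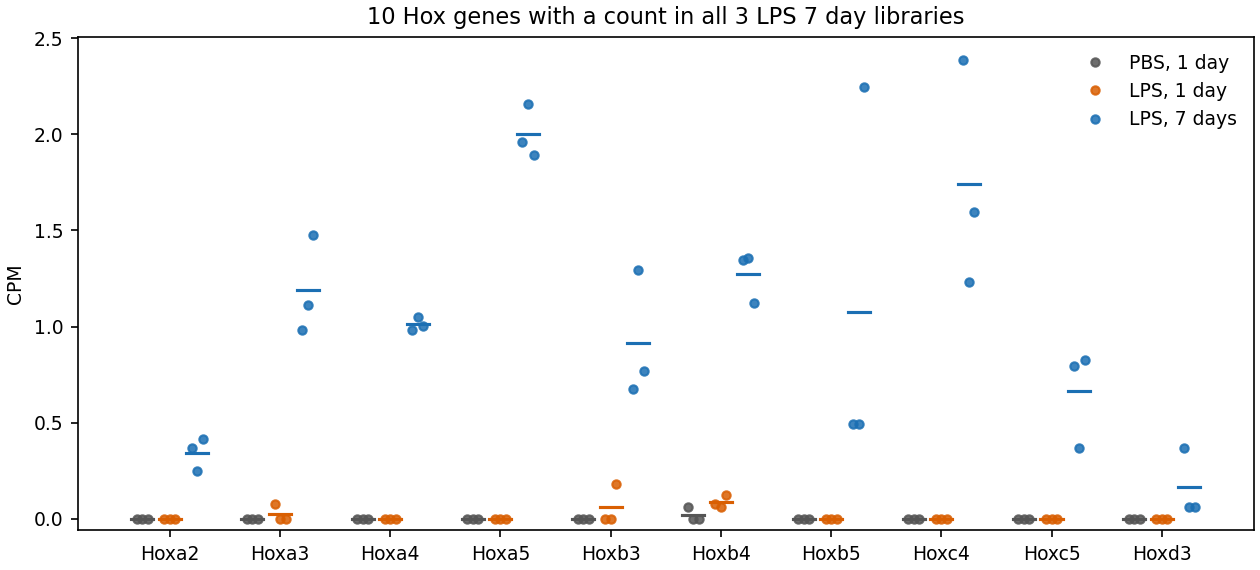
CPM of 10 Hox genes with a count in all 3 LPS 7 day libraries (points: single libraries; bars: group means of 3). Every gene shown has all its LPS 7 day points above the points of PBS and LPS 1 day, and Hoxb5 has 1 point at 2.25 CPM above the other two.

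Per gene length, in FPKM, Hoxa5 led the LPS 7 day levels at 1.09 ± 0.0757, followed by Hoxc4 (0.694 ± 0.241), Hoxa4 (0.649 ± 0.0198), Hoxb4 (0.509 ± 0.0553) and Hoxb5 (0.394 ± 0.368). Hoxc5, Hoxb3, Hoxa3 and Hoxa2 lay between 0.220 and 0.197, and the other members with a count between 0.0791 (Hoxd1) and 0.0136 (Hoxb7). Along this order, the libraries of Hoxa5 lay above all those of Hoxc4, and those of Hoxa4 above all those of Hoxb4. All other neighbours overlapped. Hoxa3 has a long gene model (44275 bases of locus) within which Hoxa4, Hoxa5 and Hoxa6 lie on the same strand, and Hoxc5 shares its span with Hoxc6, Hoxc8, Hoxc9 and Hoxc10, and Hoxd3 with Hoxd4. In all, 11 members overlap another member. How reads in shared exons were assigned is not given in the sources used here, so the split of counts within these groups is uncertain. The models Gm28308 and Gm28230, which overlap, in part or whole, Hoxa2 to Hoxa6 and Hoxd3 with Hoxd4, had 0 counts in all 9 libraries.

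The fit across all genes (edgeR quasi-likelihood, adjusted over 14837 genes that passed a filter on low counts) could test 6 members: Hoxa3, Hoxa4, Hoxa5, Hoxb3, Hoxb4 and Hoxc4. They passed that filter only through their LPS 7 day libraries, so they had to differ, and their number is not a finding about the family. Between LPS and PBS at 1 day, 0 of the 6 were called higher and 0 lower, where 24.9% and 24.2% of all tested genes were called. Hoxa4, Hoxa5 and Hoxc4 had 0 counts in both groups. Hoxa3, Hoxb3 and Hoxb4 had 1, 3 and 4 counts at LPS 1 day, against 0, 0 and 1 in PBS. Such counts leave hardly any room for a call, so the lack of calls does not show a lack of response to LPS. None had an unadjusted p under 0.05, and 0 members were called higher without the filter (17.1% of all genes higher) or by DESeq2 (19.7% higher). Of the 22 members with any count, Hoxb4 alone had LPS 1 day libraries above all PBS libraries, by single counts, where 23.9% of all genes with a count did so.

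All 6 were called higher in LPS 7 days against PBS, where 16.8% of tested genes were. Since they passed the filter only through LPS 7 days, neither this number nor the adjusted p is support for a change of the family. The edgeR adjusted p was 3.27e-10 for Hoxa5, 3.99e-09 for Hoxc4, 1.13e-07 for Hoxb4, 1.43e-07 for Hoxa3, 8.69e-07 for Hoxa4 and 4.32e-06 for Hoxb3. Without the filter 9 members were called (11.8% of all genes), Hoxa2 (edgeR adjusted p = 0.00488), Hoxb5 (4.15e-08) and Hoxc5 (3.44e-05) being added, and DESeq2 also called 9 (13.5%), with Hoxb5 at an adjusted p of 0.0232. Of the 22 members with any count, 10 had libraries that did not overlap between the groups, all higher at LPS 7 days, where 18.2% of genes with a count were higher without overlap. Many of the 22 had counts only at LPS 7 days and are included through that group. Their share is therefore not a finding about the family. The 10 were Hoxa2, Hoxa3, Hoxa4, Hoxa5, Hoxb3, Hoxb4, Hoxb5, Hoxc4, Hoxc5 and Hoxd3. With 3 libraries against 3, the exact permutation test of any single member reaches no less than 0.1.

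For LPS 7 days against LPS 1 day, the same 6 were called higher, where 27.5% of tested genes were, with edgeR adjusted p from 2.62e-10 (Hoxa5) to 7.85e-05 (Hoxb3). Their entry through LPS 7 days limits this number in the same way. Hoxb4, the member with the most counts at LPS 1 day among these, had a log2 fold change of 3.74 ± 0.63 (SE). Both comparisons with LPS 7 days share its 3 libraries. Without the filter 9 were called (18.8%), and 9 by DESeq2 (22.2%). The same 10 of the 22 members with any count did not overlap, where 24.7% of genes with a count were higher without overlap. The limit given above holds for this share too.

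Markers of other brain regions, from lists written for these tissues, moved in the same libraries. Their part in the Hox result was not tested. The share of all tested genes that rose was 16.8% for LPS 7 days against PBS. It was 24.9% for LPS 1 day against PBS, where 24.2% fell, and 27.5% for LPS 7 days against LPS 1 day. With 1 library left out, 2160 to 2498 of all genes rose and 2406 to 2806 fell for LPS 7 days against PBS. For LPS 7 days against LPS 1 day, 3630 to 4143 rose and 3954 to 4388 fell. For LPS 7 days against PBS, 8 of 8 cerebellar markers rose (edgeR; median log2 fold change 5.18, against 0.00 over all tested genes). Their summed level was 71.7 to 80.8 CPM in PBS, 60.9 to 66.7 at LPS 1 day and 1201 to 1245 at LPS 7 days. Gabra6, the GABA-A receptor subunit of cerebellar granule cells, went from 0.0861 to 164 CPM, and Cbln3, a granule cell synapse organizer partner, from 0.483 to 315 CPM. Fat2, a cadherin of granule cells, went from 0.166 to 237 CPM and Cbln1 from 63.9 to 326 CPM. Most of the summed level in PBS thus came from Cbln1 alone.

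Of 10 markers of pons and medulla neurons, 8 were tested and 7 rose, with Glra1 the one that did not pass (log2 fold change 0.18, edgeR adjusted p = 0.414). The median log2 fold change was 4.17 with the genes at 0 in PBS set to their lower bound. The summed level was 7.97 to 10.1 CPM in PBS, 5.48 to 7.42 at LPS 1 day and 75.9 to 85.1 at LPS 7 days. Slc6a5, the glycine transporter of inhibitory hindbrain and spinal neurons, went from 0.382 ± 0.0781 to 57.8 ± 2.71 CPM. Tlx3, a transcription factor of dorsal hindbrain and spinal neurons, was at 0 in PBS and at 4.63 ± 0.938 CPM at LPS 7 days (at least 73.3-fold higher). Slc6a4, the serotonin transporter of raphe neurons, was at 0 in PBS and at 1.58 ± 0.0354 CPM (at least 24.98-fold higher). Fev and Phox2a stayed at or below 0.140 CPM on average in each group.

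Of 8 motor neuron markers, 5 were tested for LPS 7 days against PBS: 3 rose, 1 fell and 1 did not pass (median log2 fold change 0.40). Prph, an intermediate filament of motor and sensory neurons, rose from 3.97 to 15.4 CPM, Slc5a7, the choline transporter, rose from 18.8 to 24.8 CPM, and Isl1, a motor neuron factor also found in forebrain, fell from 12.5 to 9.46 CPM, while Chat, the acetylcholine-making enzyme, was at 16.5 and 15.04 CPM. Mnx1, the defining factor of spinal somatic motor neurons, had no count in any library. Of 6 midbrain markers, 4 were tested and 2 rose (median 0.94). Slc6a3, the dopamine transporter, rose from 4.92 to 23.6 CPM, and En1, a midbrain and front hindbrain factor, from 0.283 to 1.497 CPM. Slc6a3 was already higher than PBS at LPS 1 day, at 10.7 CPM. Among 8 thalamic markers 1 rose and 5 fell (median -0.27), among them Tcf7l2, a thalamic transcription factor, from 67.0 to 40.6 CPM, while Calb2 rose from 97.1 to 159.7 CPM. Of 8 markers of cortex and striatum 0 rose and 6 fell (median -0.64). Drd1, a striatal dopamine receptor, fell from 52.6 to 20.0 CPM. Over all tested genes 16.8% rose, and with 1 library left out 2160 to 2498 genes rose and 2406 to 2806 fell.

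Between LPS and PBS at 1 day, where Hox counts were 6 in PBS and 16 after LPS, 1 of the 8 tested pons and medulla markers rose and 2 fell, and 1 of 8 cerebellar markers rose and 1 fell (median log2 fold changes -0.09 for cerebellum and 0.33 for pons and medulla, against -0.01 over all genes). Between LPS 7 days and LPS 1 day, 8 of 8 rose in both lists (medians 5.39 and 3.67, against 0.00), so both lists moved with the same libraries as the Hox genes.

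**Figure D4:**
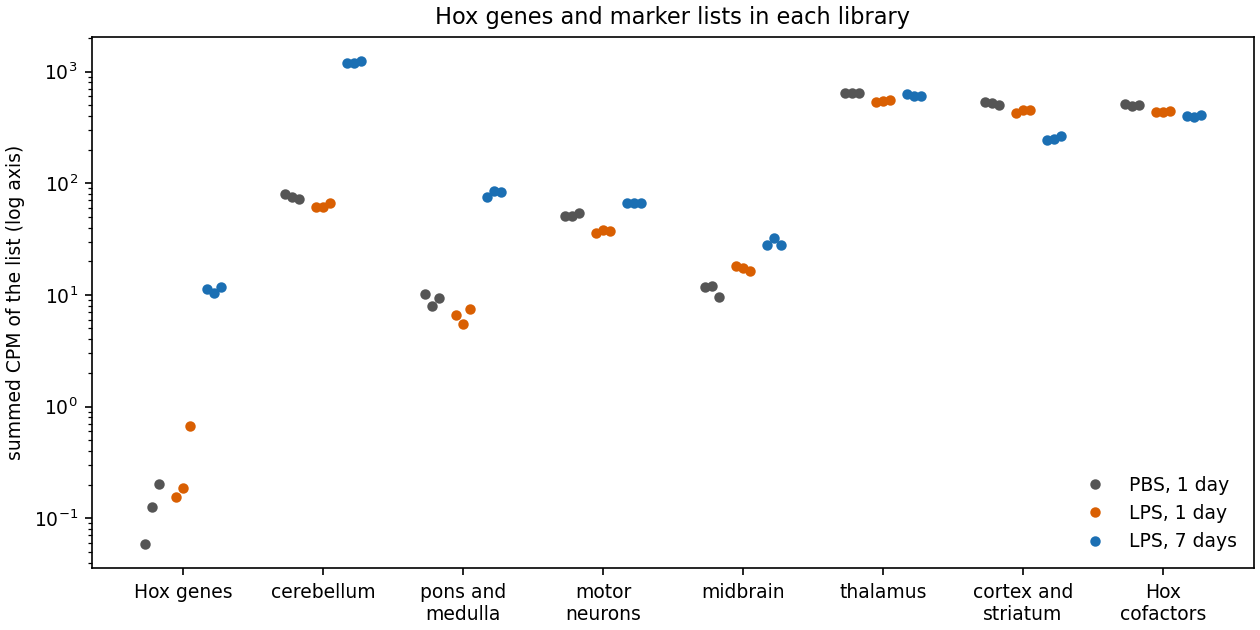
Summed CPM (log axis) of the Hox genes, of 6 marker lists and of the Hox cofactors in each of the 9 libraries (points, 3 per group). The Hox, cerebellum and pons and medulla sums of the LPS 7 day libraries stand above all day 1 libraries. The thalamus sums of the 3 groups lie between 537 and 646 CPM, and the cortex and striatum sums are lowest at LPS 7 days. The thalamus sum joins 1 gene that rose and 5 that fell for LPS 7 days against PBS.

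Tissue outside the brain can also carry Hox transcripts, since fibroblasts, muscle, Schwann cells and blood cells of the trunk keep a Hox code. Over all tested genes 16.8% rose for LPS 7 days against PBS, and 2406 to 2806 fell with 1 library left out. At LPS 7 days, 6 of 7 tested fibroblast markers were higher than in PBS (median log2 fold change 0.35), with a summed level of 162 to 171 CPM in PBS and 199.6 to 212 CPM at LPS 7 days. The sum was higher still at LPS 1 day, at 260 to 276 CPM, where Hox counts were 2, 3 and 11. Muscle markers (0 of 3 tested passed) summed to 5.38 to 6.28 CPM in PBS and 4.13 to 4.72 CPM at LPS 7 days. Of 4 tested markers of peripheral nerve, 1 rose and 1 fell. Pmp2, a protein of peripheral myelin, had no count in any library. Of 4 tested blood markers, 2 rose, both haemoglobin genes, and their list summed to 22.9 to 27.0 CPM in PBS and 24.1 to 28.4 CPM at LPS 7 days. The part of these cells in the Hox result was not tested.

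The partners with which Hox proteins bind DNA, the PBX, MEIS and PREP (Pknox) homeodomain proteins, were expressed in every library. Of these 9, 1 rose, 3 fell and 5 did not pass by edgeR for LPS 7 days against PBS (median log2 fold change -0.14). Over all tested genes 16.8% rose, and with 1 library left out 2160 to 2498 genes rose and 2406 to 2806 fell. Meis1 rose from 7.76 ± 0.664 to 16.2 ± 0.170 CPM (log2 fold change 1.07 ± 0.13 SE, adjusted p = 5.67e-10 by edgeR). Meis2 fell from 128 to 79.4 CPM and Pknox2 from 62.5 to 44.2 CPM. Between LPS and PBS at 1 day 1 rose and 7 fell (median -0.18), Meis1 being lower at 4.44 ± 0.995 CPM. Over all tested genes 24.9% rose and 24.2% fell at 1 day. Between LPS 7 days and 1 day 3 rose and 3 fell, where 27.5% of all tested genes rose. With 1 library left out, 3630 to 4143 of all genes rose and 3954 to 4388 fell.

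Of 14 genes that set Hox domains in the embryo (retinoic acid enzymes and receptors, CDX factors, segment factors and growth factors), 8 could be tested. For LPS 7 days against PBS 1 rose, 2 fell and 5 did not pass (median log2 fold change -0.07). Over all tested genes 16.8% rose in this comparison, and 2406 to 2806 fell with 1 library left out. Rara, a retinoic acid receptor, rose from 11.4 to 15.1 CPM, while Rarb, a receptor that is itself a retinoic acid target, fell from 15.2 to 7.74 CPM and Egr2, a hindbrain segment factor that neurons also induce with activity, from 14.7 to 8.14 CPM. At 1 day 1 rose and 4 fell (median -0.26), where 24.9% of all tested genes rose and 24.2% fell. The one that rose was Aldh1a2, which makes retinoic acid, from 7.45 to 16.6 CPM, back at 7.18 CPM at LPS 7 days. Between LPS 7 days and 1 day 4 rose and 2 fell. Over all tested genes 27.5% rose here, and 3954 to 4388 fell with 1 library left out. Cdx2 and Cdx4, which switch on trunk and tail Hox genes in the embryo, had no count in any library.

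The chromatin proteins that keep Hox genes silent (Polycomb) or active (MLL and the H3K27 demethylases) were expressed in all groups. Of 20, 3 rose, 1 fell and 16 did not pass for LPS 7 days against PBS (median log2 fold change -0.00). The number that rose is near the share over all tested genes, of which 16.8% rose. With 1 library left out, 2406 to 2806 of all genes fell. Suz12 and Eed, core Polycomb subunits, rose from 37.8 to 44.0 CPM and from 11.9 to 14.9 CPM, Cbx2, a Polycomb reader, from 3.85 to 5.33 CPM, and Kdm6a, a demethylase that removes the Polycomb mark, fell from 55.9 to 48.6 CPM. With other scalings 3 to 5 rose. At 1 day 11 rose and 0 fell (median 0.15), where 24.9% of all tested genes rose and 24.2% fell. With other scalings 0 to 1 fell. Between LPS 7 days and 1 day 0 rose and 8 fell. Over all tested genes 27.5% rose here, and 3954 to 4388 fell with 1 library left out. With other scalings 0 to 3 of the 20 rose and 6 to 7 fell.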

How the data were processed

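Gene counts, FPKM and gene annotation of 9 PVT libraries were used as deposited. Libraries were made from total RNA with a TruSeq kit, per the labels' protocols. The authors obtained the counts from aligned reads, with TopHat2, HISAT2, HTSeq and GRCm39 named in the submitters' processing notes. For the aligner finally used, versions, strandedness and overlapping genes, details were not given in the sources used here. FPKM were scaled to gene length and library total by the authors, and values recomputed from the counts differed by at most 1.6e-07 (relative). FPKM served only for levels between genes. The other deposited columns (names, lengths and 1-based GRCm39 positions) were used unchanged.

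Counts of 14837 of 21899 genes that passed filterByExpr (minimum count 10, minimum total 15) were fitted with edgeR 4.0.16 quasi-likelihood (R 4.3.3) over all 9 libraries with 1 mean per group and TMM factors (0.983 to 1.03). The common biological coefficient of variation was 4.15%, with 6 residual and 43.4 prior degrees of freedom, which is infinite without the filter. Tests were two-sided, with Benjamini-Hochberg adjustment over all tested genes, and a gene rose or fell when its adjusted p was under 0.05. CPM are counts scaled to library size after TMM. The alternatives were DESeq2 1.42.0, other scalings, no filter, a replicate block, 2 groups only and leaving out each library. The method was tested on simulated data. A fold against a group at 0 counts is a lower bound with 3 counts over the group, and groups of 1 to 3 counts have a 95% counting interval. The lower bound leaves out the counting error of the higher group, so it cannot be set beside the lower end of such an interval. Named genes are all members and up to 4 genes per list by p-value in LPS 7 days against PBS. Other genes named are those of a list that had no count, passed in no test or define a cell type, chosen after their values were seen. Some genes that this rule names are left out of the text and of the plots by gene. The members and the 13 lists were chosen with earlier results of these data known. Promoters are RefSeq sequences of GRCm38.p6.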

Additional observations from a re-analysis of the deposited data

How the results depend on the processing

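The Hox calls kept their direction under every alternative run. This had to be so, since the called members had few or no counts at day 1, and it is no check of the result. For LPS 7 days against PBS, and against LPS 1 day, 6 members were called higher under edgeR with RLE, upper quartile or library size scaling, with 2 groups only, and with the replicate number as a block, 9 without the filter or with DESeq2, and 6 to 7 with 1 library left out. Between LPS and PBS at 1 day 0 members were called, as their counts left hardly any room for a call. With 2 groups only the 6 members fell under the filter. Replicate numbers did not pair the samples: across genes, deviations of same-numbered libraries correlated at -0.0232 to 0.0270, and a library correlated best with its own number in 8 of 18 cases. With the block, all genes gave 2417 higher and 2722 lower for LPS 7 days against PBS (2489 and 2798 without it). With library size scaling these were 3183 and 2326, and 4867 and 3680 for LPS 7 days against LPS 1 day (4076 and 4323 with TMM). Of the 39 members, 21 had no count at LPS 7 days, where 0 counts in a library allow a level of up to 0.180 to 0.190 CPM.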
